A study of Mus musculus with 70 samples.

Results

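ST2- CD44hi Tregs sorted from lungs were compared with ST2- CD44hi Tregs sorted from blood of the same 5 mice. The members were the 10 libraries with these labels, 5 of each tissue, out of 70 libraries in the series. All 10 held over 1000000 counts, as did 67 of the 70. The mice were males of 16.6 to 18.6 weeks. They were Foxp3YFP-cre mice (allele Foxp3tm4(YFP/icre)Ayr on a B6.129(Cg) background), in which YFP and Cre recombinase are made from the Foxp3 locus. The labels name no treatment, and every group carried the same allele. Sorted cells were single, live, CD4+ and YFP+, carried CD45.2, and lacked CD8 and CD11b. ST2- CD44hi cells were taken from these. Each library came from 220 cells, except that of blood of mouse 1, which came from 166. Lungs were perfused and digested with collagenase IV and DNAse, and their CD4 T cells were enriched on magnetic beads. Blood was neither digested nor enriched, so tissue and handling cannot be told apart. RNA was measured in bulk, and fewer cells of a type and less RNA per cell cannot be told apart either.

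Tregs are CD4+ T cells that restrain other immune cells, and the transcription factor Foxp3 defines them. Those with high CD44 are effector Tregs, which have met antigen and enter nonlymphoid tissues. ST2, the product of Il1rl1, is the receptor of the alarmin IL-33. The comparison asks how effector Tregs that lack this receptor differ between a nonlymphoid organ and the circulation that feeds it. In the study, an antibody injected into the blood labelled most lung Tregs, with or without ST2. The authors could not exclude circulating Tregs among the lung cells, but held it unlikely that they were circulating cells alone. The other groups used here came from the same mice. They were ST2+ CD44hi Tregs of lungs (5 libraries) and blood (4 libraries over the minimum), ST2- CD44hi Tregs of spleen (5), and the central ST2- CD44lo Tregs of lungs and spleen (5 each). For the lung epithelium list, ST2- CD44hi Tregs of skin (5) were used too.

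The libraries held 1559367 to 2453648 counts in lungs and 1545636 to 2166518 in blood. Genes with at least 1 count numbered 13160 to 15219 in lungs and 12051 to 14957 in blood. The blood libraries of mice 1 and 2 had the fewest detected genes, 12051 and 12587, against 14819 to 14957 in the other blood libraries. Spearman's rho between libraries ran from 0.934 to 0.962 within lungs and from 0.875 to 0.952 within blood. None of 6 library measures passed an unpaired test between the tissues (exact permutation tests, two-sided, adjusted p from 0.333 to 0.659, where the smallest p allowed by 5 against 5 is 0.0079). The percent of mitochondrial and of globin counts, were lower in the lungs of all 5 mice (exact sign-flip test within mice, p = 0.0625 for each, the smallest that 5 pairs allow). The plot of library measures shows these values and the summed level of 4 gene lists.

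**Figure D1:**
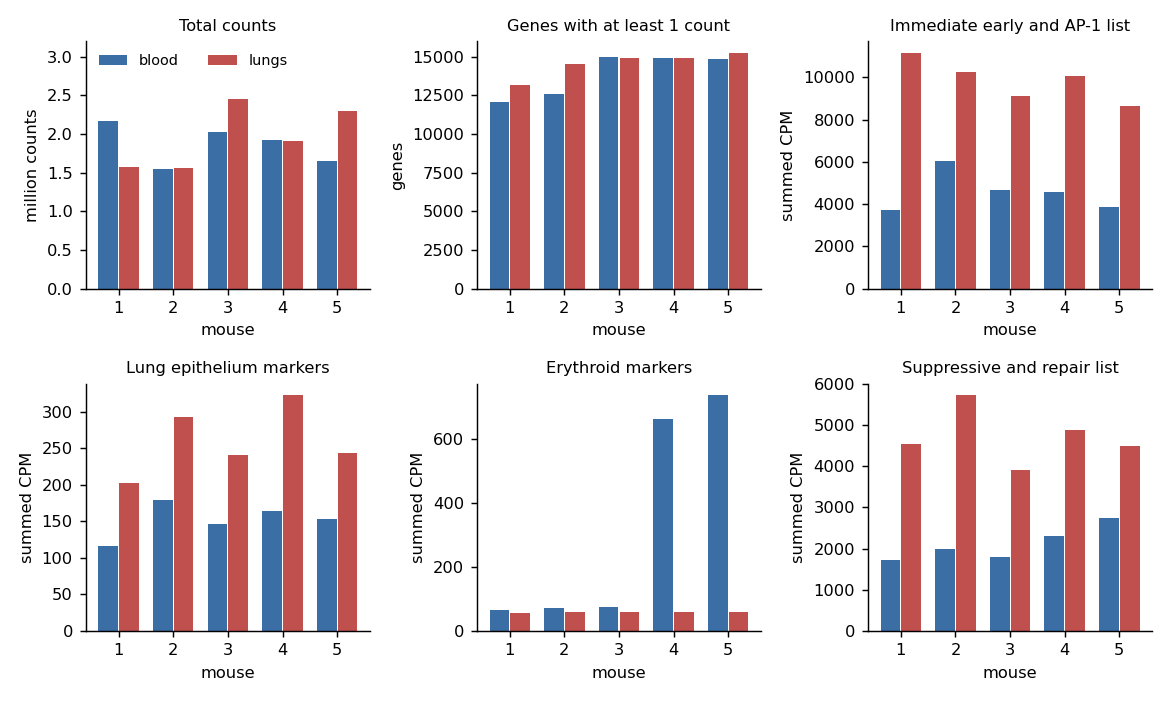
Bars give, for each mouse, the total counts, the number of detected genes, and the summed CPM of 4 gene lists in the blood (blue) and lung (red) library of ST2- CD44hi Tregs. Immediate early genes and suppressive genes were higher in the lungs of every mouse, and erythroid transcripts were high in blood of mice 4 and 5.

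The labels held up against the sort genes. Foxp3 was at 156 ± 16.5 CPM (SD, n = 5) in lungs and 153 ± 27.7 in blood, where CPM is counts per 1000000 counts in the tested genes after TMM scaling. Ptprc, which encodes CD45, was at 2108 to 2733 CPM in lungs and 2089 to 2636 in blood. Cd4 was at 315 to 498 CPM in lungs and 359 to 513 in blood. Cd8a had 0 counts in all 10 libraries. Il1rl1 was at 0 to 9.64 CPM in lungs and 0.644 to 14.3 in blood, against 793 to 992 in ST2+ CD44hi Tregs of lungs and 498 to 613 in those of blood. These sort genes thus had overlapping levels in both tissues. Cd44 itself differed, at 275, 307, 247, 325 and 341 CPM in lungs of mice 1 to 5 and 146, 43.2, 160, 165 and 210 in blood. Its libraries did not overlap, and the log2 fold change was 1.04 ± 0.20 (SE, adjusted p = 0.000418).

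With 1 term per group over 67 libraries, 412 of 13173 tested genes were DEGs between lungs and blood. DEGs were those that changed 1.5-fold or more with a Benjamini-Hochberg adjusted p up to 0.05 (edgeR's quasi-likelihood test). Of the DEGs, 337 were higher in lungs (2.56% of tested genes) and 75 were lower (0.569%). The higher genes changed at least 2-fold in 237 cases, at least 4-fold in 130 and at least 8-fold in 85, and the lower genes in 38, 11 and 9 cases. Lung and blood libraries did not overlap in 236 of the 337 and 49 of the 75, which 4.81% of all tested genes did. Within mice, 290 of the 337 were higher in the lungs of all 5, and 63 of the 75 were lower in all 5. These genes were picked on the same libraries, so both counts describe them and add no separate support. Without blood of mice 1 and 2 the counts were 170 higher and 23 lower, and 26 of the 82 named called genes lost their call. Without mouse 2 or mouse 3 in every group, 241 and 262 genes were called in all.

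Odc1, Bhlhe40 and Areg had the smallest adjusted p of all genes. Odc1 (chromosome 12, 17544794 to 17551505, GRCm38) encodes ornithine decarboxylase, the enzyme of the first step of polyamine synthesis. It was at 299, 334, 256, 284 and 237 CPM in lungs of mice 1 to 5 and 26.7, 54.1, 72.9, 53.1 and 58.5 in blood. Every lung library stood above every blood library, a 5.32-fold difference (log2 2.41 ± 0.17, adjusted p = 4.58e-16). Areg (chromosome 5, 91139599 to 91148432) encodes amphiregulin, a growth factor by which Tregs take part in tissue repair. It was at 141, 220, 104, 227 and 133 CPM in lungs and 0.453, 2.58, 5.03, 3.19 and 1.83 in blood. Blood was near the lower end of detection in all 5 mice, and the log2 fold change was 5.95 ± 0.46 (adjusted p = 2.98e-15).

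The sequences before the start sites of genes among the smallest adjusted p show whether motifs of factors that changed lie there. Bhlhe40 has no entry in the promoter table used. RefSeq promoters (GRCm38.p6, 250 bases before to 50 after the start) are printed for Odc1 and Areg, which were higher in lungs, and for Txnip and Rsrp1, which were lower. They lie at chr12:17544623-17544922, chr5:91139349-91139648, chr3:96557707-96558006 and chr4:134923375-134923674, all on the plus strand. Capitals mark a match to the cAMP response element.
Odc1: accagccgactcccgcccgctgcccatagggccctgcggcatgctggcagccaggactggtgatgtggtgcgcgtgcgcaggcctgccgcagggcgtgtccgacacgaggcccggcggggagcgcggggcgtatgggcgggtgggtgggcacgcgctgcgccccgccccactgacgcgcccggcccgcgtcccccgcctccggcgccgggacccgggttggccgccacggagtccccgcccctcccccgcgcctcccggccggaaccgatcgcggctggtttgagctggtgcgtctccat
Areg: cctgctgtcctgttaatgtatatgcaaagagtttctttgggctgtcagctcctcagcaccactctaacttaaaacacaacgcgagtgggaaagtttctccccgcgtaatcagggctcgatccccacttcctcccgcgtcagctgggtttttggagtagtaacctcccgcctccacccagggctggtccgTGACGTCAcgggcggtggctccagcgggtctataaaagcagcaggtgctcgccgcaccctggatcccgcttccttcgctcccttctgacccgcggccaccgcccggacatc
Txnip: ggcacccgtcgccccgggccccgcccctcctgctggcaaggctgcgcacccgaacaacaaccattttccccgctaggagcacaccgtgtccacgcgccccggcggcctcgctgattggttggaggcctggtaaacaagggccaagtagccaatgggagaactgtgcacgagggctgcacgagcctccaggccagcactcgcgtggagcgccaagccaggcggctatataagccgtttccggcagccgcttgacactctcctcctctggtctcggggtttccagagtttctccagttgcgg
Rsrp1: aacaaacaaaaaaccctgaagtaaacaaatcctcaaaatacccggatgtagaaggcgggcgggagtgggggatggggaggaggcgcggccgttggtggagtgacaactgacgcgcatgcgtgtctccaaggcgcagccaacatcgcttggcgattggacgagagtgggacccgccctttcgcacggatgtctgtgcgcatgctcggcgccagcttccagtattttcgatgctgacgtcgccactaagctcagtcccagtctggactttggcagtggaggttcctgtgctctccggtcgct
The motifs searched on both strands were TGACGTCA (the cAMP response element, bound by factors of the Creb, Crem and Atf families), TGANTCA (AP-1) and CACGTG (the E-box, bound by basic helix-loop-helix factors such as Bhlhe40). Each reads the same on both strands, and none contains another. Of the 4 promoters only that of Areg held one, TGACGTCA starting 61 bases before the start site. Over the 10360 tested genes with a promoter in the table, 3.16% held TGACGTCA, 4.83% TGANTCA and 9.88% CACGTG. Among 262 genes called higher in lungs the shares were 4.2% (11 genes), 8.4% (22 genes) and 8.02% (21 genes). Among 64 genes called lower they were 1.56% (1 gene), 6.25% (4 genes) and 4.69% (3 genes). The 4 lower genes with TGANTCA included the globin Hbb-bs. With so few genes, no departure from the share of tested genes is read from the lower set. The genes with TGACGTCA included Areg, Dusp1 and Ppp1r15a, and those with TGANTCA included Tnfaip3, Ccr4, Prdm1 and Fgl2. These matches describe letters in the window and show no binding.

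Suppressive and repair molecules were higher in lungs. Of 25 tested members of this list, 15 were called higher and 0 lower, and the median log2 fold change was 1.30, beside a median of 0 over all tested genes. Il10 encodes the suppressive cytokine interleukin 10. Its lung libraries were at 18.7, 69.3, 19.3, 68 and 69.9 CPM and its blood libraries at 0.453, 0, 0, 0.531 and 0.609, which is 3 counts in all of blood. The pooled ratio of lungs to blood was 149 (95% counting interval 50.8 to 727, adjusted p of the fit 1.02e-10). Lungs of mice 1 and 3 had lower Il10 than those of the other 3 mice, and all lay above blood. Cd83, a surface glycoprotein of activated cells, was at 183 to 359 CPM in lungs and 0.453 to 62.7 in blood (log2 3.16 ± 0.37, adjusted p = 3.57e-09). Icos, a costimulatory receptor, was at 692 to 940 CPM in lungs and 232 to 422 in blood (log2 1.30 ± 0.16, adjusted p = 9.71e-09). Neither overlapped between the tissues.

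The other 11 called members were Fgl2, Pdcd1, Tigit, Penk, Cd274, Ctla4, Havcr2, Gzmb, Lag3, Itgb8 and Pdcd1lg2. They include the checkpoint receptors Ctla4, Pdcd1, Tigit, Lag3 and Havcr2, and the ligands PD-L1 (Cd274) and PD-L2 (Pdcd1lg2). Ctla4, which strips costimulatory ligands from other cells, was at 1013, 1184, 785, 1001 and 855 CPM in lungs and 472, 661, 547, 568 and 680 in blood. Its libraries did not overlap (log2 0.72 ± 0.15, adjusted p = 0.00103). Itgb8, part of an integrin that releases active TGF-beta, had a log2 fold change of 1.40 ± 0.40 (adjusted p = 0.0298), and lost its call without any of 6 single libraries, with an adjusted p of up to 0.113 without lungs of mouse 4. Tgfb1 itself was at 45.9 ± 9.13 CPM in lungs and 46.3 ± 24.6 in blood. The count was 10 without blood of mice 1 and 2.

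**Figure D2:**
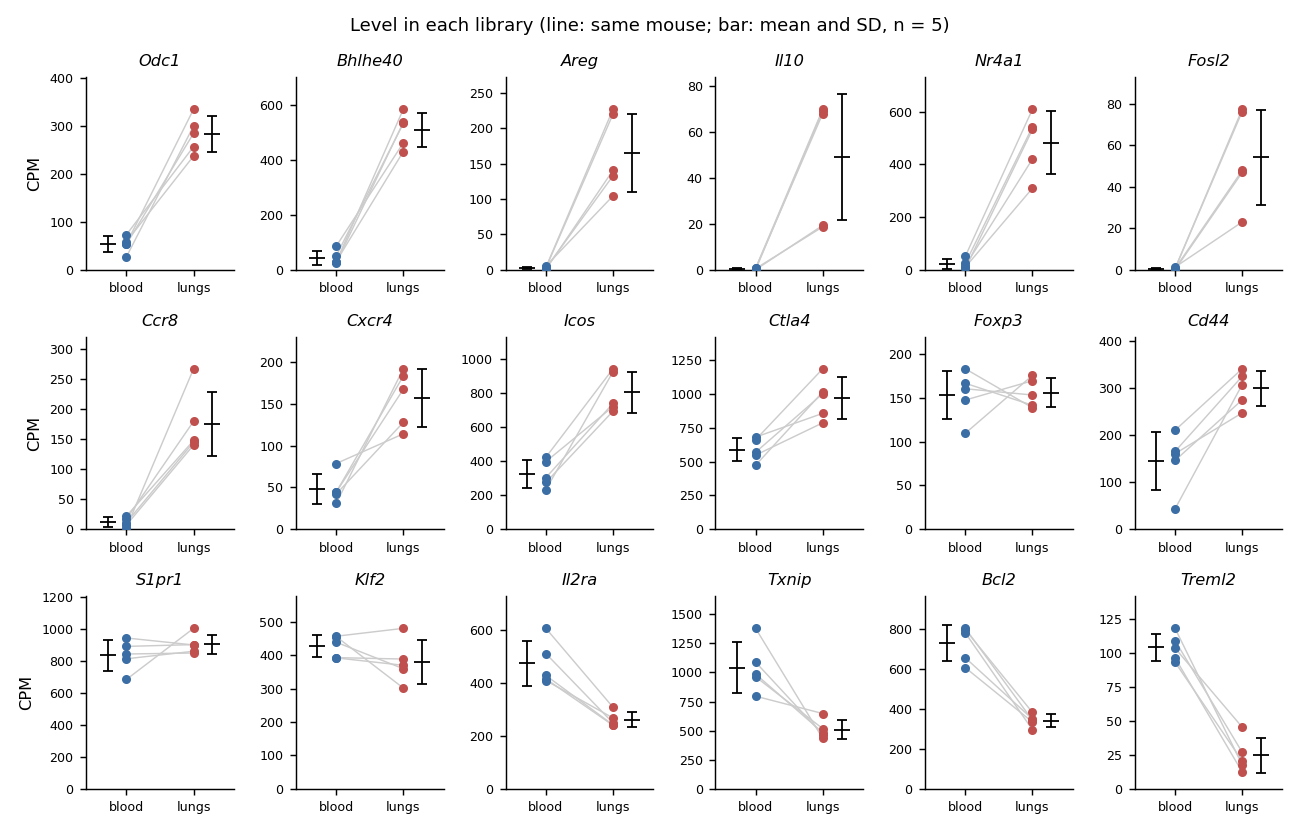
Each panel gives the CPM of 1 gene in the 5 blood (blue) and 5 lung (red) libraries, with lines joining the libraries of a mouse and bars at the mean ± SD. Genes from Odc1 to Ctla4 and Cd44 were higher in every lung library than in any blood library, Foxp3, S1pr1 and Klf2 overlapped, and Il2ra, Txnip, Bcl2 and Treml2 were lower in every lung library.

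Immediate early genes, which T cells transcribe within minutes of a stimulus, and the AP-1 factors among them made up the list with the most DEGs. Of 36 tested members, 20 were called higher in lungs and 0 lower, with a median log2 fold change of 1.47. Nr4a1 encodes the orphan nuclear receptor Nur77, which antigen receptor signals induce. It was at 609, 532, 542, 309 and 420 CPM in lungs and 50.8, 4.51, 24.1, 9.56 and 14.6 in blood, a 22.5-fold difference without overlap (adjusted p = 5.58e-12). Fosl2, an AP-1 subunit, was at 77.3, 46.9, 47.8, 76.2 and 23 CPM in lungs and 0.453, 0, 0.503, 0.531 and 1.22 in blood (log2 6.49 ± 0.63, adjusted p = 1.07e-11). Nr4a2 was at 83.3 to 101 CPM in lungs and 0 to 3.19 in blood (log2 6.34 ± 0.72, adjusted p = 1.71e-09). The MAP kinase phosphatase Dusp4 was at 145 to 228 CPM in lungs and 0.906 to 38 in blood (log2 3.97 ± 0.45, adjusted p = 1.16e-09). Neither gene overlapped between the tissues. Atf3, a stress-induced factor, had 1 count in all of blood and 16.4 to 48.2 CPM in lungs, a pooled ratio of 284 (counting interval 50.6 to 11273).

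Members that were not called included Egr1, at 17.8 ± 7.68 CPM in lungs and 8.24 ± 8.37 in blood, and Myc, at 143 ± 48.5 and 212 ± 64.4. Cd69, a marker of recent activation that also retains T cells in tissue, was at 580 to 970 CPM in lungs and 380 to 589 in blood. It was higher in the lungs of all 5 mice but was not called (log2 0.68 ± 0.23, adjusted p = 0.0788). In the edgeR fit with mouse as a block, it was called (adjusted p = 0.00846). The summed level of the list was 8664 to 11146 CPM in lungs and 3708 to 6019 in blood. It was 4059 to 5963 in ST2- CD44hi Tregs of spleen, 9223 to 11580 in central Tregs of lungs and 3941 to 6144 in central Tregs of spleen. The groups from lungs were thus the high ones at both CD44 levels, and lungs were digested while spleens were disrupted mechanically. The part of digestion in these values was not tested. Leaving out blood of mice 1 and 2 gave 22 higher calls in the list.

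Transcription factors of effector Tregs were higher in lungs in 10 of 23 cases and lower in 0, with a median log2 fold change of 0.73. Bhlhe40, a basic helix-loop-helix repressor, was at 536, 584, 430, 532 and 461 CPM in lungs and 24, 27.7, 29.7, 49.9 and 85.2 in blood, an 11.8-fold difference (adjusted p = 2.46e-15). Crem, the cAMP-responsive element modulator, was at 181 to 431 CPM in lungs and 12.9 to 57.8 in blood (log2 2.89 ± 0.27, adjusted p = 2.43e-12). Nfil3, a leucine zipper factor of lymphocyte programmes, was at 206 to 275 CPM in lungs and 1.29 to 65.8 in blood (log2 3.07 ± 0.33, adjusted p = 4.15e-10). All 3 were higher in each lung library than in any blood library. Hif1a, the oxygen-regulated factor, differed less, at 380 to 530 against 131 to 245 CPM (log2 1.16 ± 0.14, adjusted p = 3.97e-09).

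The other called factors were Rora, Ahr, Irf4, Prdm1, Maf and Ikzf3. Prdm1, which encodes Blimp-1, was at 31.2 to 124 CPM in lungs and 5.44 to 67.6 in blood, where mouse 5 was the high one. Its groups overlapped, and without lungs of mouse 2 its adjusted p rose from 0.00825 to 0.0566. Without blood of mice 1 and 2 it was 0.241, and voom did not call Prdm1 with or without quality weights. Gata3 (182 ± 20 against 135 ± 22.4 CPM) and Foxp1 (463 ± 51.2 against 627 ± 73.1 CPM) were not called, nor was Batf (159 ± 25.1 against 106 ± 25.1 CPM), whose fold change lay just under the threshold. Without blood of mice 1 and 2, or without mouse 2 in every group, 5 members of the list were called higher, and without mouse 3 it was 6. Outside the lists, the transcription factor Cebpb was at 147 to 235 CPM in lungs and 17.7 to 51.1 in blood (5.26-fold, adjusted p = 2.43e-12).

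NF-kB genes and the inhibitors they induce were called higher in 9 of 29 cases and lower in 0 (median log2 fold change 0.47). Tnfaip3 encodes A20, a ubiquitin-editing brake on NF-kB. It was the most abundant of them, at 2501, 2240, 2004, 1863 and 2045 CPM in lungs and 620, 1011, 923, 732 and 835 in blood (log2 1.37 ± 0.16, adjusted p = 3.94e-09). Nfkbid, a nuclear IkB protein, was at 221 to 333 CPM in lungs and 12.2 to 62.1 in blood (log2 2.51 ± 0.25, adjusted p = 1.44e-11). Nfkbiz was at 327 to 372 against 76.1 to 193 CPM, and the adaptor Traf1 at 806 to 910 against 374 to 557 CPM. None of these 4 overlapped between the tissues. Rel, Birc3, Malt1, Nfkbia and Nfkb2 were the other called members, and Rela was not called (292 ± 43.8 against 254 ± 37.3 CPM). With blood of mice 1 and 2 left out, 11 members were called higher.

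**Figure D3:**
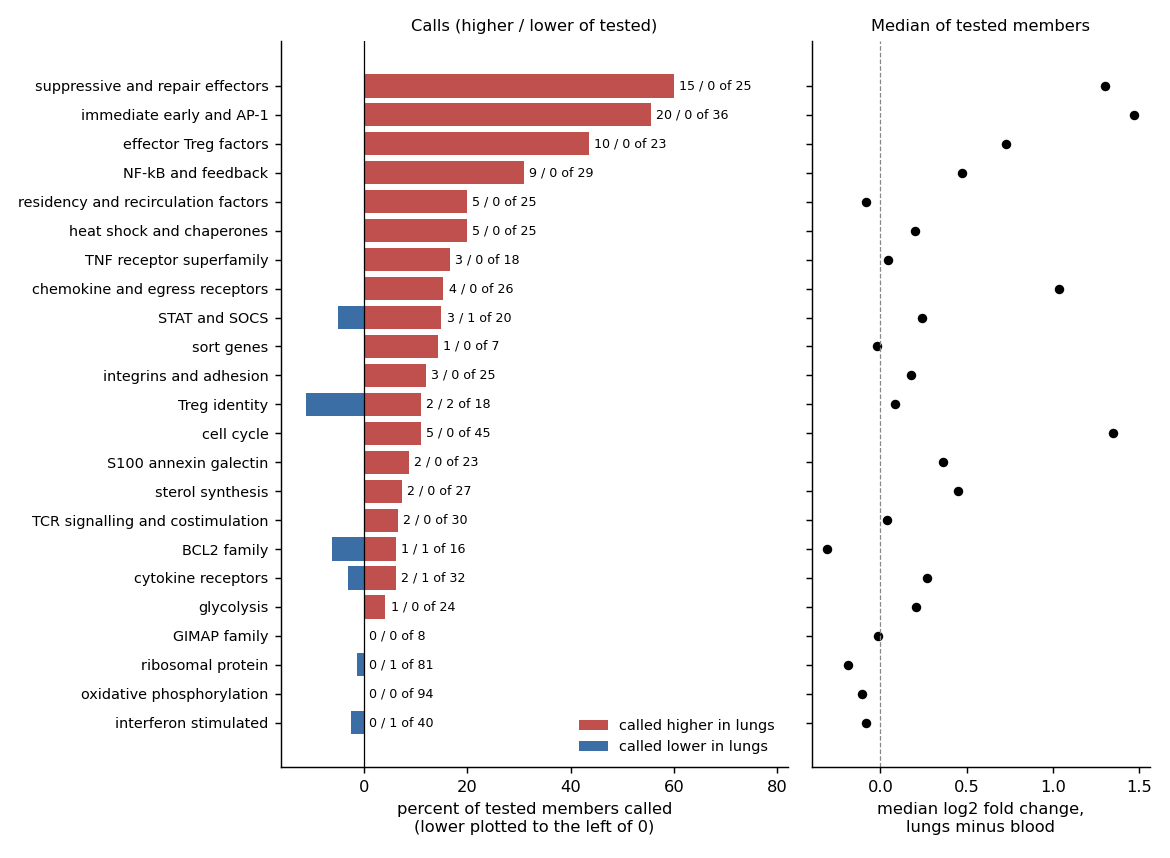
Left, bars give the percent of tested members of each of 23 gene lists called higher (red, to the right) or lower (blue, to the left) in lungs, with the counts printed beside them. Right, points give the median log2 fold change of lungs minus blood over the tested members. Suppressive, immediate early, effector factor and NF-kB lists had the largest shares of higher calls, and oxidative phosphorylation and GIMAP genes had none.

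Receptors that guide T cells between blood and tissue differed in 4 of 26 tested cases, all higher in lungs (median log2 fold change 1.04). Ccr8, a chemokine receptor of tissue Tregs, was at 180, 268, 140, 145 and 148 CPM in lungs and 17.2, 2.58, 7.04, 11.2 and 21.9 in blood. The 14.5-fold difference came without overlap (adjusted p = 4.5e-12). Cxcr4, the receptor of CXCL12, was at 114 to 192 CPM in lungs and 30.8 to 78.6 in blood (log2 1.71 ± 0.28, adjusted p = 1.21e-05). Ltb4r1, the leukotriene B4 receptor, was at 8.73 to 40.7 CPM in lungs and 0 to 11 in blood, with mouse 5 as the blood library that overlapped (log2 3.21 ± 0.65, adjusted p = 0.000656). Ccr4 was at 63.3 to 167 CPM in lungs and 10.6 to 80.2 in blood, and its call (adjusted p = 0.0164) was lost without any of 3 libraries, with an adjusted p of up to 0.074 without blood of mouse 3.

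Receptors of egress and lymph node entry were not called. S1pr1, which draws T cells out of tissue towards blood and lymph, was at 850 to 1005 CPM in lungs and 685 to 944 in blood. Ccr7 was at 1007 to 1364 CPM in lungs and 860 to 1286 in blood. Klf2, a factor that sustains S1pr1, was at 302 to 480 CPM in lungs and 392 to 456 in blood. All 3 overlapped between the tissues. Cxcr3 (451 ± 47 against 271 ± 122 CPM), Cxcr6 (206 ± 101 against 98.5 ± 124) and Ccr2 (229 ± 82.3 against 114 ± 92.9) had wide spreads in blood and were not called. Without blood of mice 4 and 5, Cxcr6 and Ccr2 were called higher, and 7 of the 26 receptors in all.

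Of 25 genes of residency and recirculation, 5 were called higher and 0 lower, but the median log2 fold change was -0.08. Voom with quality weights called 3 higher and 3 lower, and the fit of the 2 groups with mouse as a block 2 and 2. Rgs2, a brake on G protein signals, was at 575 to 849 CPM in lungs and 103 to 251 in blood (log2 1.81 ± 0.23, adjusted p = 4.9e-08). Klf4 was at 9.19 to 25.8 CPM in lungs and 0 to 3.86 in blood (log2 4.34 ± 0.73, adjusted p = 3.02e-05). Both were clear of overlap. Rgs16 (log2 2.26 ± 0.58, adjusted p = 0.0123, 0.0553 without lungs of mouse 3 and 0.061 without blood of mice 1 and 2) and Id2 were the less firm calls. Id2 (log2 0.96 ± 0.27, adjusted p = 0.0287) lost its call without any of 5 libraries, with an adjusted p of up to 0.142 without blood of mouse 1. Factors of quiescent T cells had these levels and were not called. Tcf7 was at 635 ± 86.3 CPM in lungs and 672 ± 56.5 in blood, Lef1 at 305 ± 34.7 and 399 ± 77.4, Satb1 at 389 ± 54.7 and 691 ± 154, and Foxo1 at 395 ± 31.6 and 481 ± 29.3. Satb1, Lef1 and Foxo1 were lower in the lungs of all 5 mice. Satb1 was called lower in a fit of the 2 groups with mouse as a block (log2 -0.82, adjusted p = 0.00484) and in voom with quality weights. If blood of mice 1 and 2, or mouse 3 in every group, was left out, 2 members of the list were called, and without mouse 1, 2 or 4 it was 3.

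Among 25 integrins and adhesion molecules, Itgav, Cd44 and Itgb8 were called higher and 0 lower. Itgav, the alpha subunit that pairs with the product of Itgb8, was at 160, 295, 209, 259 and 288 CPM in lungs and 6.8, 52.2, 62.3, 90.8 and 87.7 in blood. Its libraries did not overlap (log2 2.02 ± 0.32, adjusted p = 6.24e-06). Itgae, which encodes CD103, was at 194 ± 85.5 CPM in lungs and 76.6 ± 42.6 in blood and was not called. Anxa1, which encodes the anti-inflammatory annexin A1, and Ahnak, a giant scaffold protein, were the called members of the 23 S100, annexin and galectin genes. Both were higher, which is 8.70% of the list, beside 2.56% of all tested genes. Anxa1 was at 36.8 to 82.2 CPM in lungs and 0 to 20.2 in blood (log2 3.02 ± 0.56, adjusted p = 0.000179). Voom, with or without quality weights, did not call Anxa1, nor did the fits of the 2 groups with or without mouse as a block. Ahnak was at 610 to 1018 CPM in lungs and 177 to 522 in blood (log2 1.12 ± 0.22, adjusted p = 0.000464, and 0.0579 without blood of mice 1 and 2). Anxa1 and Ahnak had no overlap between tissues. Without blood of mouse 5, 6 genes of that list were called, and without blood of mouse 1 it was 4.

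Genes that define Tregs split. Of 18 tested, Tnfrsf4 and Ctla4 were called higher and Il2ra and Gpr83 lower (median log2 fold change 0.08). Il2ra (CD25), the high-affinity subunit of the IL-2 receptor, was at 241, 309, 250, 242 and 268 CPM in lungs and 416, 608, 512, 430 and 410 in blood. Every lung library lay below every blood library (log2 -0.86 ± 0.16, adjusted p = 0.000213). Tnfrsf4, the costimulatory receptor OX40, was at 505 to 820 CPM in lungs and 300 to 481 in blood (log2 0.78 ± 0.13, adjusted p = 1.81e-05). Gpr83, an orphan receptor of Tregs, was at 67.1 to 112 CPM in lungs and 111 to 355 in blood. Its call (log2 -1.66 ± 0.49, adjusted p = 0.0384) was lost without any of 8 of the 10 libraries, with an adjusted p of up to 0.116 without blood of mouse 1. Ikzf2, which encodes Helios, was at 952 ± 110 CPM in lungs and 815 ± 145 in blood and was not called.

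Of the cytokine receptors 6.25% and of the STAT and SOCS genes 15% were called higher, beside 2.56% of all tested genes. Of 32 receptors, Ifnar1 and Il1r2 were called higher and Il2ra lower. Ifnar1, a subunit of the type I interferon receptor, was at 459 to 671 CPM in lungs and 174 to 407 in blood (log2 0.95 ± 0.19, adjusted p = 0.000544). Il1r2, a decoy receptor of IL-1, was at 12.7, 208, 20.5, 30.2 and 14.7 CPM in lungs, and without mouse 2, the high library, its adjusted p rose from 0.0214 to 0.586. Without blood of mice 1 and 2 it was 0.22. Of 20 STAT and SOCS genes, Cish, Stat5b and Jak2 were called higher and Socs1 lower, but in the fit without blood of mice 1 and 2 this was 1 higher and 0 lower, with an adjusted p of 0.0984 for Cish and 0.17 for Jak2. Stat5b, which carries IL-2 signals to the nucleus, was at 371 to 463 CPM in lungs and 217 to 311 in blood (log2 0.70 ± 0.15, adjusted p = 0.00181). Socs1 had a log2 fold change of -0.70 ± 0.20 (adjusted p = 0.0338) and lost its call without any of 6 libraries, with an adjusted p of up to 0.141 without blood of mouse 1. Of 40 interferon-stimulated genes 0 were called higher and Ifi47 alone lower, at 205 to 379 CPM in lungs and 459 to 582 in blood. The call of Ifi47 (adjusted p = 0.00638) was lost without blood of mice 1 and 2 (0.061) and without mouse 5 (0.0678).

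TNF receptor superfamily genes were called higher in 3 of 18 cases, Tnfrsf4, Tnfrsf1b and Tnfrsf8. Tnfrsf1b, which encodes TNFR2, was at 487, 596, 567, 371 and 600 CPM in lungs and 378, 68.9, 187, 98.2 and 153 in blood. Blood of mouse 1 overlapped with lungs, and the log2 fold change was 1.56 ± 0.26 (adjusted p = 2.71e-05). Tnfrsf8 (CD30) had 0 counts in blood and was at least 12.6-fold higher in lungs against a floor of 3 counts over the group, but 17 CPM of it came from mouse 2, without which the adjusted p was 0.13. Among 30 genes of T cell receptor signalling and costimulation, the negative regulators Ptpn22 and Cblb were called higher, and 0 were lower. Higher calls were 6.67% of that list, beside 2.56% of all tested genes. Cblb was at 560 to 834 CPM in lungs and 257 to 495 in blood (adjusted p = 0.0123, and 0.0785 without blood of mouse 1). Ptpn22 was at 588 to 665 CPM in lungs and 343 to 490 in blood, and without blood of mouse 1 it was no longer called (adjusted p = 0.041).

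Cell cycle genes were called higher in 5 of 45 cases and lower in 0, with a median log2 fold change of 1.35. Cdkn1a, the cell cycle inhibitor p21, was at 42.7, 62.5, 31.9, 49.9 and 18.8 CPM in lungs and 0, 0.644, 0, 1.59 and 3.65 in blood (log2 5.15 ± 0.73, adjusted p = 6.06e-07). Cenpa, the centromeric histone, was at 383 to 483 CPM in lungs and 82.5 to 208 in blood (log2 1.57 ± 0.23, adjusted p = 1.37e-06). These were the firmest calls of the list and had no overlap. Mcm2, Mcm4 and Hmgb2 were the others, and Mcm4 and Hmgb2 each lost the call without any of 3 libraries, with an adjusted p of up to 0.105 for Mcm4 without blood of mouse 1 and 0.074 for Hmgb2 without blood of mouse 3. Mki67 was at 159 CPM in lungs and 59.2 in blood on average and was not called. Voom with quality weights, the study's method, called 17 members, voom 14 and DESeq2 8. The count of called members was 13 without blood of mouse 5, 2 without lungs of mouse 1, without mouse 3 or without blood of mice 1 and 2, and 3 without blood of mouse 2 or of mouse 3. The summed level of the list was 3714 to 5993 CPM in lungs and 2557 to 4335 in blood, where mouse 5 was the highest.

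Of 25 heat shock and chaperone genes, 5 were called higher and 0 lower. Atf4, the factor of the integrated stress response, was at 245 to 337 CPM in lungs and 119 to 136 in blood (log2 1.25 ± 0.14, adjusted p = 1.57e-09). The chaperone Hspa5 was at 665 ± 102 CPM in lungs and 438 ± 64.4 in blood, and with a 1.52-fold difference it fell under the fold threshold without any of 4 libraries, with an adjusted p of at most 0.00191. Bag3, Xbp1 and Hspa1b were the others, and reads of Hspa1b can be shared with its near copy Hspa1a. Only 2 members were called without blood of mice 1 and 2, and without mouse 1 in every group 1 was. In glycolysis 1 of 24 genes was called (Pfkp, 1.56-fold higher, not called without blood of mouse 1), and in sterol synthesis 2 of 27 were, Insig1 among them. These were 4.17% and 7.41% of the lists called higher, beside 2.56% of all tested genes. Insig1 lost its call without any of 4 libraries, with an adjusted p of up to 0.0986 without blood of mouse 1. No member of the glycolysis or sterol list was called without blood of mice 1 and 2. Oxidative phosphorylation (94 genes) and the GIMAP GTPases (8 genes) had 0 calls. The list of ribosomal proteins had 1 of 81, Rpl7l1, a gene that its name pattern caught and that lost its call without any of 6 libraries.

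The BCL2 family held 1 call in each direction among 16 tested genes. Of all tested genes, 2.56% were called higher and 0.569% lower. Bcl2, which keeps lymphocytes alive, was at 334, 295, 343, 382 and 349 CPM in lungs and 606, 780, 803, 795 and 655 in blood. Lungs were lower in every library (log2 -1.09 ± 0.28, adjusted p = 0.0109). The call of Bcl2 was lost without mouse 2 (0.081) or mouse 3 (0.0653) in every group. Pmaip1, which encodes the death-promoting protein Noxa, was at 64 to 112 CPM in lungs and 0 to 34.1 in blood (log2 2.17 ± 0.46, adjusted p = 0.00123). Neither gene overlapped between the tissues.

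Fewer genes were lower in lungs, and the lower genes belonged to few of the lists. Txnip, which encodes thioredoxin-interacting protein, an inhibitor of glucose uptake, had the smallest adjusted p among them. It was at 647, 433, 517, 467 and 483 CPM in lungs and 796, 1378, 962, 1088 and 986 in blood, 2.05-fold higher in blood (adjusted p = 2.8e-06). Rsrp1 was at 521 to 647 CPM in lungs and 813 to 1083 in blood (log2 -0.71 ± 0.12, adjusted p = 2.79e-05). Resf1, a factor that silences retroelements, was at 499 to 674 CPM in lungs and 811 to 1010 in blood (log2 -0.72 ± 0.13, adjusted p = 0.000176). Every lung library was below every blood library for all 3. Tec, a kinase of antigen receptor signalling, was at 10.7 to 36.8 CPM in lungs and 72.2 to 111 in blood (log2 -1.71 ± 0.30, adjusted p = 5.12e-05). Nrros, a protein that holds latent TGF-beta at the surface of cells, was at 52 to 120 CPM in lungs and 160 to 224 in blood (log2 -1.21 ± 0.23, adjusted p = 0.000194). Rcn1, a calcium-binding protein of the endoplasmic reticulum, and AI467606 were also lower in all 5 mice, with adjusted p of 0.000841 and 0.0001.

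Among lower genes at 20 CPM or more in blood, Ntn4, Treml2 and Mr1 had the largest changes outside the globins. Ntn4, which encodes netrin 4, had 0 counts in lungs and 17.7, 25.8, 36.2, 11.2 and 11 CPM in blood, at least 63.9-fold lower in lungs against a floor of 3 counts over the group (adjusted p = 0.0159, but 0.0638 without mouse 2 and 0.0619 without mouse 5). Treml2, a receptor of the TREM family, was at 12.4 to 45.3 CPM in lungs and 93 to 118 in blood without overlap, but its call (adjusted p = 0.033) was lost without any of 7 libraries, with up to 0.106 without lungs of mouse 5, and it was 0.142 without blood of mice 1 and 2. Mr1, which presents vitamin metabolites to T cells, was at 8.67 to 32.3 CPM in lungs and 47 to 140 in blood (adjusted p = 0.0313, and up to 0.108 without lungs of mouse 1, 1 of 5 libraries that end its call, and 0.0632 without blood of mice 1 and 2). Ltb, lymphotoxin beta, was 1.53-fold lower and fell under the fold threshold without lungs of mouse 5 or blood of mouse 2. On the higher side the largest changes included Cxcl10, a chemokine induced by interferon, at 79.3, 201, 27.7, 85 and 79.1 CPM in lungs and with 1 count in blood (pooled ratio 801, counting interval 143 to 31667). Ier5l was at 25.6 to 72 CPM in lungs with 1 count in blood (pooled ratio 432, counting interval 77.1 to 17106).

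Transcripts of other cells moved with the tissue. Sftpc, the surfactant protein of alveolar epithelium, was at 12, 34, 26.4, 40 and 41.4 CPM in lungs with 0 counts in blood, at least 97.1-fold higher (adjusted p = 5.03e-05). Scgb1a1, of airway club cells, was at 10.1 to 49.3 CPM in lungs with 0 counts in blood, at least 80.3-fold higher. With Sftpa1, 3 of 9 tested lung epithelium markers were called, and the summed list was at 202 to 322 CPM in lungs and 116 to 178 in blood. In blood 8 of the 14 list genes had no count, and in ST2- CD44hi Tregs of skin the sum was 380 to 690 CPM. The sum thus does not measure lung epithelium alone. The epithelial keratin Krt8 had 0 counts in all 10 libraries, as did Sftpb. Mmp9, at 8.15 to 147 CPM in lungs and 0 to 11.2 in blood, was the only neutrophil marker that passed the filter. S100a8 had 0 counts and S100a9 2 counts in all of lungs, while in blood they reached 137 and 171 CPM, all but a trace of it in mouse 2. Markers of endothelium, fibroblasts, macrophages, dendritic cells, B cells and CD8 or NK cells had 0 calls. Summed macrophage and monocyte markers were nonetheless lower in the lungs of all 5 mice, at 374 to 538 CPM against 531 to 766 in blood. Of the 16 genes of that list, 8 had no count in lungs and 9 had none in blood. In central Tregs of lungs, where 9 had no count, the sum was still 350 to 457 CPM. This sum thus does not measure macrophages and monocytes alone. Summed fibroblast markers were at 0.46 to 30.2 CPM in lungs and 0 to 1.93 in blood. Their median log2 fold change was 3.25 over 9 genes, but 6 of these had no count in blood. With the floor of 3 counts over a group without counts, the median was 0.64.

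In blood, the globins Hbb-bs and Hbb-bt were called higher. Hbb-bs was at 1.81, 1.29, 0.503, 158 and 210 CPM in blood with 0 counts in lungs, at least 218-fold lower in lungs, and Hbb-bt was at least 152-fold lower. These near-identical genes share reads. Neither was called without blood of mice 4 and 5, the libraries that carried them, and without that pair 509 genes were DEGs. The summed erythroid list was at 55.3 to 60.3 CPM in lungs, 64.4 to 75.9 in blood of mice 1 to 3, and 662 and 736 in blood of mice 4 and 5. Summed platelet markers were at 106 to 371 CPM in blood and 0 to 170 in lungs, with 0 of 10 called in edgeR and DESeq2, 5 lower in voom and 9 lower in voom with quality weights. The part of these other cells in the differences above was not tested.

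ST2+ CD44hi Tregs give the same contrast in other libraries. Among those of blood, the library of mouse 3 came from 55 cells and that of mouse 2 from 202. Between their lungs and blood, 410 genes were called higher (3.11% of tested genes) and 164 lower (1.24%). Of the 337 genes higher in ST2- lungs, 155 were also called there, 46% of the 337 and 37.8% of the 410. Of the 75 lower genes 19 were, 25.3% and 11.6%. None of the 412 was called in the opposite direction. Among genes described above, the lungs minus blood log2 fold changes in ST2+ cells were 2.13 for Odc1, 3.70 for Areg, 6.09 for Nr4a1, 3.42 for Ccr8 and -1.24 for Txnip, and all 5 were called. For Icos (0.47), Tec (-0.22), Nrros (0.03), Bcl2 (0.18) and Anxa1 (-0.21) no difference was called in ST2+ cells. None of these 5 genes was called in the interaction of tissue and ST2, given next. A call in ST2- cells alone thus does not show that their difference depends on ST2.

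The interaction of tissue and ST2 tests whether the lung and blood difference itself depends on ST2. It was called for 4 genes, 0.0304% of those tested, and 1297 had an unadjusted p under 0.05. Il2ra fell in lungs in ST2- cells by 0.86 on the log2 scale, and stood at 0.36 in ST2+ cells (difference -1.22 ± 0.24, adjusted p = 0.0265). Its level in ST2+ cells was 322 CPM in lungs and 251 in blood on average. Dusp6, a phosphatase of the ERK kinases, was at 31.1 ± 12.4 CPM in lungs and 45.9 ± 14.4 in blood of ST2- cells, and 55.3 ± 28.4 and 6.55 ± 7.39 in ST2+ cells (difference -3.66 ± 0.72). Polr1a, the large subunit of RNA polymerase I, was at 56.7 ± 26.6 and 109 ± 59.3 CPM in ST2- cells and 135 ± 55.1 and 46.5 ± 22.6 in ST2+ cells (difference -2.47 ± 0.50). Sh3bgrl had a difference of 1.04 (adjusted p = 0.0481), from 0.61 in ST2- cells and -0.43 in ST2+ cells. Leaving out 1 mouse left 0 to 5 genes called, with 0 without mouse 3 or mouse 4. With mouse as a block 7 genes were called. Voom with quality weights called 3, of which Sh3bgrl was the only one of these 4 (adjusted p = 0.0845 for Il2ra and Polr1a, and 0.28 for Dusp6).

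**Figure D4:**
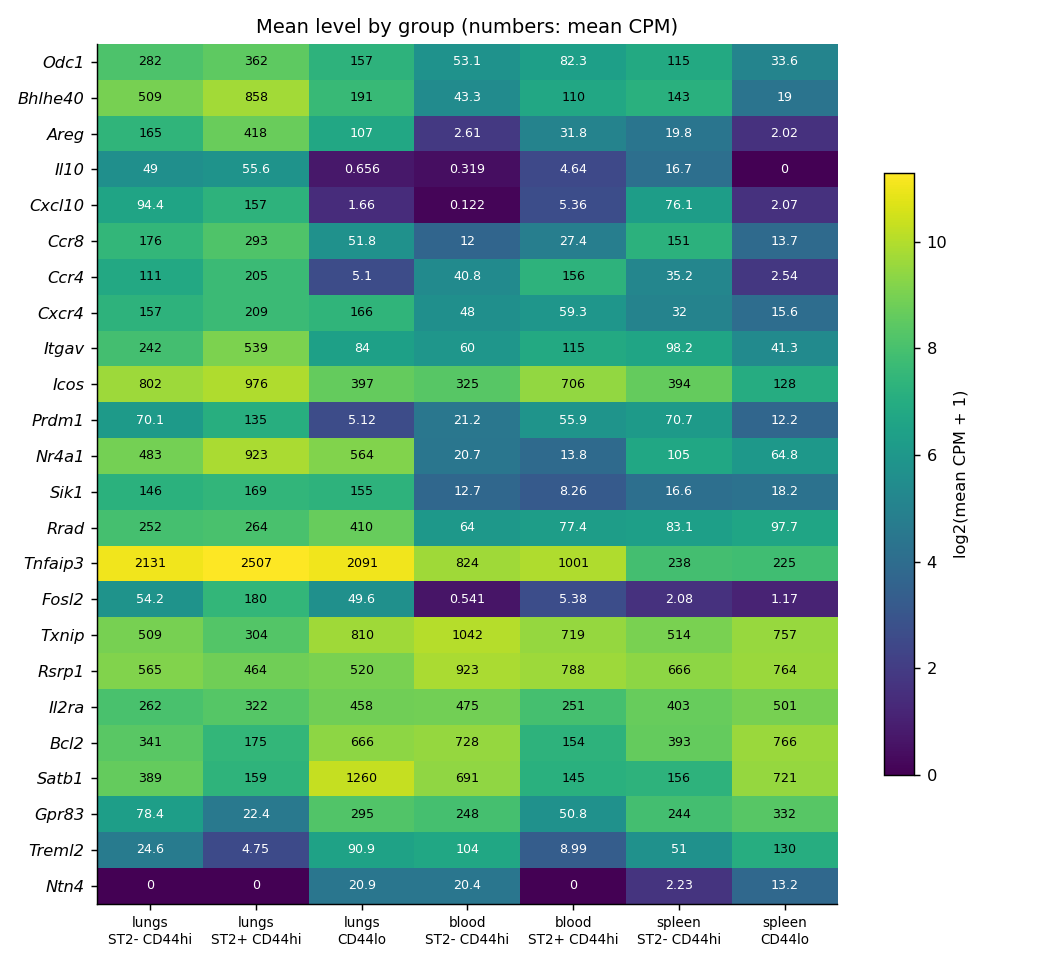
Color gives the log2 of the mean CPM plus 1 of 24 genes in 7 groups of Tregs, and the printed numbers are the mean CPM (4 libraries for blood ST2+ CD44hi, 5 for the others). Sik1, Rrad, Nr4a1, Fosl2 and Tnfaip3 were high in all 3 lung groups, while Il10 and Cxcl10 were high in CD44hi cells of lungs and low in central Tregs.

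Spleen places both tissues. ST2- CD44hi Tregs of blood and spleen differed in 471 genes (3.58%), and those of lungs and spleen in 544 (4.13%). These comparisons share libraries with that of lungs and blood, so the values are given side by side. Ccr8 was at 176 ± 53.4 CPM in lungs, 151 ± 28.7 in spleen and 12 ± 7.74 in blood, and Cd83 at 247 ± 71.1, 402 ± 62.1 and 27.8 ± 22.8. Tnfrsf1b was at 524 ± 97.3, 474 ± 66.8 and 177 ± 121 CPM in the same order. For these 3 genes blood was the low tissue, called against spleen as well (adjusted p = 7.01e-11, 5.86e-11 and 0.000169), and lungs and spleen were not called apart. Txnip (509 ± 82.5, 514 ± 51.9 and 1042 ± 215 CPM) and Tec (25.5 ± 9.97, 24.8 ± 8.2 and 84.3 ± 15.9 CPM) were high in blood in the same way. Sik1 (146 ± 31.2, 16.6 ± 6.91 and 12.7 ± 8.92 CPM), Rrad (252 ± 36.4, 83.1 ± 26.5 and 64 ± 10.8 CPM) and Fosl2 (54.2 ± 22.8, 2.08 ± 1.29 and 0.541 ± 0.436 CPM) were instead high in lungs, with blood and spleen not called apart. Tnfaip3 rose in steps from spleen (238 ± 53.3 CPM) through blood (824 ± 154 CPM) to lungs (2131 ± 247 CPM), each step called. Odc1 and Areg were lowest in blood, at 115 ± 22 and 19.8 ± 8.46 CPM in spleen, also with each step called.

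Central ST2- CD44lo Tregs, the least differentiated group, give a further contrast of lungs in separate libraries. Against spleen, 305 genes were higher in lungs (2.32% of tested genes) and 126 lower (0.957%). Of the 337 genes higher in lungs than blood in CD44hi cells, 122 were called higher there (36.2% of the 337 and 40% of the 305), and 4 were called lower. Of the 75 lower genes 12 were called lower (16% and 9.52%). Within lungs, CD44hi and CD44lo Tregs differed in 733 genes (5.56%). Sik1 (146 ± 31.2 CPM in CD44hi and 155 ± 9.44 in CD44lo cells of lungs), Nr4a1 (483 ± 118 and 564 ± 132) and Cxcr4 (157 ± 34.3 and 166 ± 20.6) were not called apart within lungs. Il10 was at 49 ± 27.4 CPM in CD44hi and 0.656 ± 0.467 in CD44lo cells of lungs, Cxcl10 at 94.4 ± 64 and 1.66 ± 2.72, and Anxa1 at 60.6 ± 18.6 and 3.03 ± 3.52, all called. Ntn4 was at 0 CPM in CD44hi and 20.9 ± 14.9 CPM in CD44lo cells of lungs, and Bcl2 at 341 ± 31.2 and 666 ± 133, both lower in CD44hi cells.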

How the data were processed

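Bulk RNA-seq libraries were made with SMART-Seq v4 and NexteraXT from sorted Tregs. Per the labels and the methods, the authors aligned reads with STAR to GRCm38 and counted reads per gene with HTSeq (0.4.1 in the submitters' processing notes), and the deposited values are raw counts without normalization. The methods asked for more than 1000000 counts per library, and 67 of 70 libraries were kept on that rule. Of 53465 genes in the table, 53274 were found in GENCODE M21, and 21865 of these were protein-coding. Tests were run on the 13173 of these that reached 1 CPM in 10% of the kept libraries, and 96.4% to 97.4% of the counts of the 10 libraries lay in them.

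Counts were tested with edgeR 4.0.16 (R 4.3.3) by the quasi-likelihood test with TMM factors, 1 term for each of 14 groups and no mouse term, and p-values were adjusted by Benjamini and Hochberg over all tested genes. The study's own method, limma (3.58.1) voom with quality weights, and DESeq2 1.42.0 were run as alternatives. Scripts used Python 3.11.15 with scipy 1.17.1, and the test was tried on simulated data. Positive log2 fold changes are higher in lungs. Genes without counts in a group were given a floor of 3 counts over the group, and pooled ratios of few counts a 95% interval for counting error only. A gene with 0 counts in a group may still be expressed below that floor.

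Replicate numbers mark mice 1 to 5, which gave every group. Deviations from the group means correlated little within a mouse (mean r 0.0487, range -0.017 to 0.078) and between mice (mean -0.0105, over 8899 genes), and the block is used as an alternative because the animals are shared. None of the 20 library pairs within the groups was identical.

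Genes were named by a rule: the 10 smallest adjusted p and, among genes at 20 CPM or more in the higher group, the 6 largest folds in each direction, up to 4 called members of each list in each direction, the sort genes and 3 genes of the interaction, 132 in all. Other list members were named after their values were seen, and a few genes are not reported here. The members, the 23 pathway lists and the 11 marker lists were chosen with earlier results of these data known. Fits without blood of mice 1 and 2 or of mice 4 and 5 were added after seeing the data.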

Additional observations from a re-analysis of the deposited data

Results flagged for a closer look

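Among 114 groups of 5 values tried, 11 held a highest or lowest library that stood apart from the other 4 (gap over range above 0.71), where chance gives about 1 in 20. Sik1 was at 201.3 CPM in lungs of mouse 1, against 126.9 to 138.7 in the other lung libraries. Gpr83 was at 111.8 CPM in lungs of mouse 4, against 67.1 to 72.66 in the others. Il1r2 was at 208.5 CPM in lungs of mouse 2, against 12.67 to 30.15. In blood of mouse 2, Crem was low at 12.88 CPM (44.87 to 57.85 in the others) and Cxcr4 high at 78.58 CPM (30.8 to 44.41). Blood of mouse 5 held Ltb4r1 at 10.96 CPM (0 to 1.508 in the others), and Cxcl10 and Atf3 at 0.6089 CPM each, which is 1 count against 0 in the others. Ier5l was at 0.5028 CPM in blood of mouse 3, again 1 count against 0.

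Mitochondrial transcripts made up 0.7364% of counts in blood of mouse 2, against 0.4892% to 0.5601% in the other blood libraries. Globin transcripts were 0.001141% of counts in lungs of mouse 3, against at most 0.000127% in the other lung libraries. In spleen of mouse 3 they were 0.00105% in ST2- CD44hi and 0.00122% in central Tregs, so the value is not particular to its lungs.

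In edgeR's test of the interaction the difference between lungs and blood differed with ST2 in 4 genes (adjusted p in parentheses), of which voom with quality weights called Sh3bgrl alone. The ST2- minus ST2+ difference in log2 fold change was -1.218 for Il2ra (0.02649), -3.663 for Dusp6 (0.02649), -2.475 for Polr1a (0.03047) and 1.043 for Sh3bgrl (0.04811).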

How the results depend on the processing

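Over 32 alternatives for lungs against blood, 17 of which left out libraries, none of the 412 called genes changed sign. Of 82 named called genes, 35 were called under all alternatives, 61 without each single library and 52 also without each mouse, and 12 of 48 uncalled named genes were called under some. DESeq2 called 652 genes (179 lower), voom with quality weights 634 (214 lower) and voom 117 lower. With glmTreat 144 were called (137 higher, 7 lower). The share of higher calls was 81.8%, 66.3% under voom with quality weights and 95.1% under glmTreat. With all 70 libraries 33 were lower. A fit of the 2 groups called 242 (174 higher), and with mouse as replicate block 202 (154 higher, 48 lower). That blocked fit of 2 groups lost 20 named calls, Cd44, Anxa1, Klf4 and Pmaip1 among them (adjusted p = 0.0814, 0.0862, 0.113 and 0.0984), and gained 3. In the fit of all groups the mouse block called 486, and of the named calls between lungs and blood the pairing moved only that of Cd69. For the interaction, 7 genes were called with the block. A 4-group fit without a mouse term called 2. Leaving out blood of mice 1 and 2, 193 were called (170 higher, 23 lower). Library sizes alone gave 301 higher and 110 lower (73.2% higher). Leaving out 1 library or mouse gave 241 to 472 called, 202 to 396 higher and 35 to 76 lower, and 0 to 5 for the interaction. Voom with quality weights called 930 genes for blood against spleen and 1430 for lungs against spleen. For the library measures of lungs and blood, percent globin, the lungs minus blood difference (-0.01639, exact p = 0.0556) ranged from -0.02046 to -0.008942, with -0.02035 without mouse 3 (exact p = 0.0286). The cause of these shifts was not tested, and 5 libraries a group limit what low genes can show.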

Other observations

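Some further genes were looked at after their values were seen, so their tests are a description. Of the polyamine pathway, Odc1 was joined by Azin1, the antizyme inhibitor that protects its product, at 155 CPM in lungs and 91.4 in blood on average (log2 0.76, adjusted p = 0.0480). Srm, the spermidine synthase of the next step, went the other way, at 45.7 and 88.1 CPM (log2 -0.95, adjusted p = 0.0366). Sat1, Sms, Oaz1 and Amd1 were not called, with log2 fold changes of 0.03, 0.18, 0.14 and -0.30.

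Genes that glucocorticoids induce did not move as one. Sgk1 (147 against 19.3 CPM, log2 2.91, adjusted p = 2.61e-05), Per1 (87.2 against 24.5 CPM, log2 1.83, adjusted p = 3.69e-05) and Fkbp5 (53.6 against 17.6 CPM, log2 1.61, adjusted p = 0.0211) were higher in lungs, as was the receptor Nr3c1 (388 against 222 CPM, log2 0.81). Tsc22d3, which encodes GILZ, was at 759 CPM in lungs and 786 in blood (log2 -0.05, adjusted p = 0.968).

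Slfn2 (310 against 511 CPM, log2 -0.72, adjusted p = 0.00133), Slfn1 (168 against 386 CPM, log2 -1.20, adjusted p = 0.00235) and Pik3ip1, an inhibitor of PI3 kinase (138 against 269 CPM, log2 -0.96, adjusted p = 0.00709), were lower in lungs.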
